A study of Mus musculus with 8 samples.

Results

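Integrin chains, the surface receptor subunits through which T cells attach to vessel walls, matrix and other cells, were followed at the transcript level in CD4-positive, Foxp3-positive T cells of the mouse. The members were the 10 rows of the expression table, out of 24453 genes, whose symbol is one of a fixed set of leukocyte integrin alpha and beta chains: Itga1, Itga2, Itga4, Itga6, Itgae, Itgal, Itgb1, Itgb2, Itgb3 and Itgb7. All 10 were found, and all 10 passed the filter on low values. The rule uses names and no measured value, but the set was chosen with earlier results of these data known.

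The study, titled as a look into heterogeneity of regulatory T cells (Treg cells), set 2 nuclear-transfer mouse models beside wild type. In nuclear transfer a mouse is cloned from 1 nucleus, and where that nucleus came from a T cell, the clone inherits its rearranged receptor. T143 (3 libraries) is the model the submitters call agonist-induced (aTreg), T138 (2 libraries) the one they call natural (nTreg), and WT (3 libraries) is wild type. All 8 libraries, WT included, carry the strain label NOD-Foxp3GFP-Rag1-/-, that is, a non-obese diabetic background with a green fluorescent Foxp3 reporter and no functional Rag1, the recombinase gene needed to rearrange T cell receptors. Whether this label holds for the WT mice was not tested, and if it does not, Rag1 genotype and line cannot be told apart in the comparisons with WT. Cells were sorted by flow cytometry, none was treated, and mRNA was sequenced with a stranded kit, per the labels. The labels give no age, and do not say whether replicates are separate mice. The p-values therefore reflect library-to-library spread, part of which may be technical. For T143 replicate 1 the source name points to a T138 mouse, and for WT replicate 1 to a T143 mouse, against their other labels, which were followed here. Each of them had Xist and Ddx3y levels on the side of the group that its other labels give, far from those of the mouse named.

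An integrin is a pair of an alpha and a beta chain. Each chain can have several partners, and the pairing sets the ligand. The alpha chain CD49d (Itga4) binds VCAM-1 and fibronectin when paired with Itgb1, and the gut vessel ligand MAdCAM-1 when paired with Itgb7. CD103 (Itgae) pairs with Itgb7 alone and binds E-cadherin on epithelium. CD11a (Itgal) with Itgb2 forms LFA-1, which binds ICAM proteins in the contact between a T cell and an antigen-presenting cell. The chains encoded by Itga1 and Itga2 pair with Itgb1 as collagen receptors, the one encoded by Itga6 as a laminin receptor, and Itgb3 pairs with Itgav on many cells or with Itga2b on platelets. T cells that move into gut and skin are known for CD103 and for the Itga4 pairs, and LFA-1 is found on nearly all leukocytes.

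Of the 10 chains, 5 promoter entries were found in the RefSeq promoter table (GRCm38.p6). The following are shown because these 4 genes passed the test as lower in T143 than in T138, and each is the 250 bases before the annotated start, 5' to 3' along the gene. Capitals mark matches, on either strand, to a RUNX core (TGTGGT, reverse complement ACCACA), an ETS core (GGAAG, reverse complement CTTCC) or an SP1 core (GGGCGG, reverse complement CCGCCC). No 2 matches overlap.
Itga4 (chr2:79255176-79255425, plus strand): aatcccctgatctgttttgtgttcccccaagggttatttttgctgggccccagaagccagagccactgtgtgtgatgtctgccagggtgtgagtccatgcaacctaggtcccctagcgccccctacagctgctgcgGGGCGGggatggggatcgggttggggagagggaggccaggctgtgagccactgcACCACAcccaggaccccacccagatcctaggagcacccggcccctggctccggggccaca
Itgb1 (chr8:128685404-128685653, plus strand): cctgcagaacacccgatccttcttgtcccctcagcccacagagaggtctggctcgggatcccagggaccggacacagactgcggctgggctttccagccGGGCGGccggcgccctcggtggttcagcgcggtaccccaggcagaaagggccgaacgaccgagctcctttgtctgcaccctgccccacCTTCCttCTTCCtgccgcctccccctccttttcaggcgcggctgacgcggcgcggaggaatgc
Itgb7 (chr15:102231936-102232185, minus strand): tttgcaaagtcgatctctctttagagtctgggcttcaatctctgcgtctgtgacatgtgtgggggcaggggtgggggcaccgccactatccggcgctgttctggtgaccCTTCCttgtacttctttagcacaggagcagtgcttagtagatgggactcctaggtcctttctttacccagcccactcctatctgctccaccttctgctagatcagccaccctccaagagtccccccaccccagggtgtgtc
Itga2 (chr13:114932101-114932350, minus strand): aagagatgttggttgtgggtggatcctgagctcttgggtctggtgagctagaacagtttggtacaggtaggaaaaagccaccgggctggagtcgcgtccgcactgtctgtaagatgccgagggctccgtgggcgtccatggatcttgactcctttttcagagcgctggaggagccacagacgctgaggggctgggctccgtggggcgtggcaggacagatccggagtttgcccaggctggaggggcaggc
The Itga4 window held 1 RUNX match, starting 60 bases before the start, and 1 SP1 match at 114 bases. The Itgb1 window held 2 ETS matches, at 63 and 56 bases, and 1 SP1 match at 151 bases. The Itgb7 window, which lies inside the RefSeq gene span because other transcripts start further upstream, held 1 ETS match at 141 bases. The Itga2 window held none of the 3. Among all 32851 promoters of the table, a match within the same 250 bases was present in 14.0% for RUNX, 64.1% for ETS and 32.7% for SP1. The GC content of the windows was 64.0% for Itga4, 68.0% for Itgb1, 56.0% for Itgb7 and 60.8% for Itga2, against a median of 52.4%. These matches describe letters only, and the 4 genes shared no match that all of them held.

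Recovered depth ran from 7.83 to 12.6 M reads in T143, 15.84 to 18.41 M in T138 and 14.64 to 22.64 M in WT, and values below are the authors' normalised read counts, scaled to the same total in every library. The sorted fractions were not alike in content. The 7 markers of CD4 and Treg cells were all present in every library, but their summed level was 0.267 to 0.356% of the total in T143, 0.632 to 0.637% in T138 and 0.583 to 0.66% in WT, and Foxp3 was at 3920, 6299 and 8694 in T143 cells, 41854 and 41161 in T138 cells and 29773, 36362 and 35360 in WT cells. These markers did not move together. In T143 against T138, Foxp3, Il2ra and Ctla4 were called lower (log2 changes -2.79, -2.72 and -3.39, limma adjusted p = 0.000206, 2.69e-05 and 0.00369). Cd4, Cd3d, Cd3e and Cd3g were not called (0.063, 0.972, -0.755 and -0.119, adjusted p = 0.815, 0.0896, 0.0579 and 0.783). Neutrophil markers (11 of 11 present in the table) summed to 0.571 to 3.43% in T143, 0.0275 to 0.143% in T138 and 0.000486 to 0.00529% in WT, led by S100a9 and S100a8. Dendritic cell markers (10 of 10) summed to 0.0363 to 0.154% in T143, 0.407 to 0.545% in T138 and 0.0073 to 0.00924% in WT, led by Cd74 and H2-Aa. Xist, expressed from the inactive X chromosome of females, was at 19143 to 24992 in T143, 0 to 2.95 in T138 and 0 to 129.9 in WT, so sex and line cannot be told apart where T143 is compared. Cells of these other types carry integrins too, and in bulk samples fewer cells of a type and less RNA per cell cannot be told apart.

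**Figure D1:**
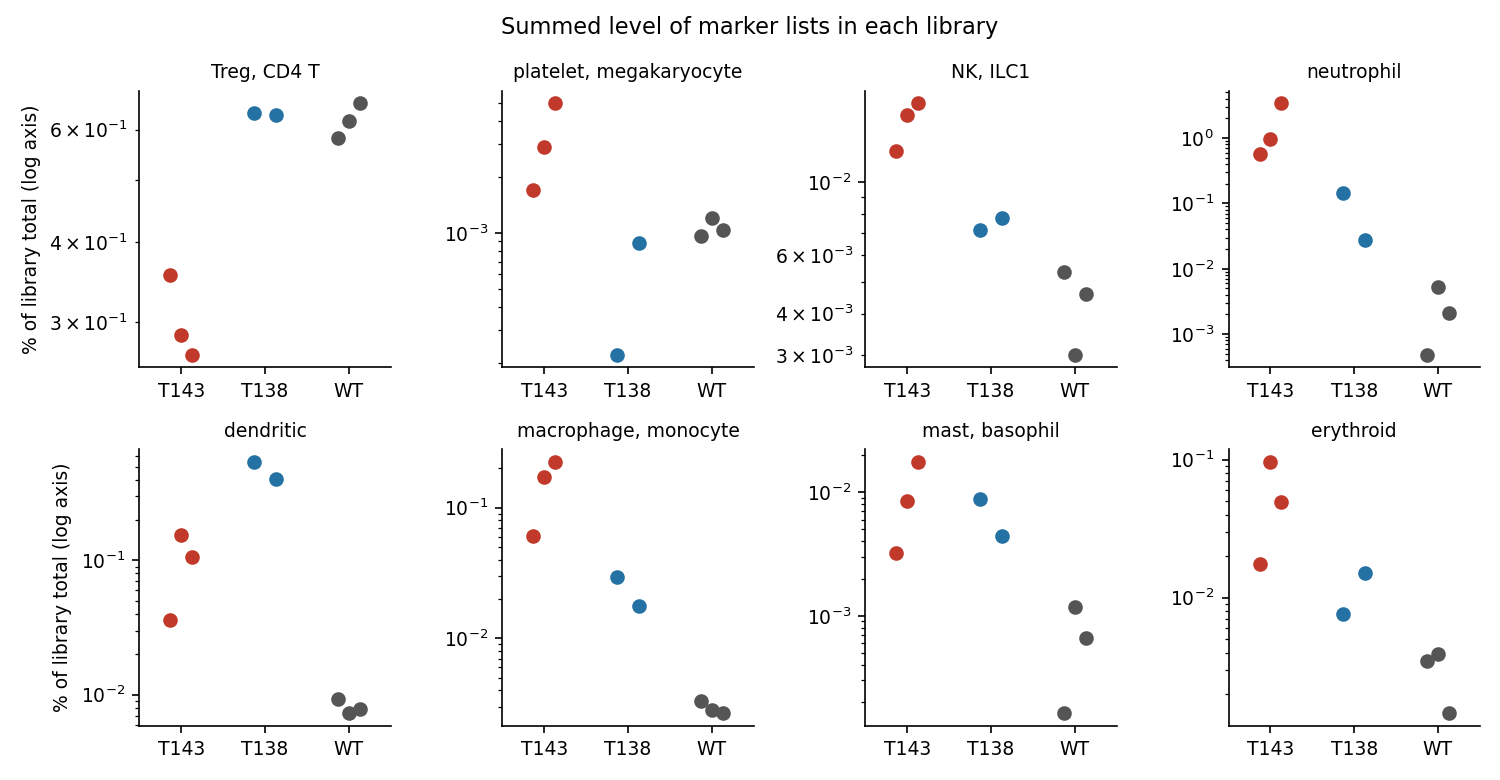
Summed level of marker gene lists as percent of the library total (log axis, 1 panel per list, 1 point per library) in T143, T138 and WT. The CD8 T cell and B cell lists are not shown. Neutrophil markers reached 3.43% in T143 and stayed at or below 0.00529% in WT, and dendritic cell markers were highest in T138, at 0.407 and 0.545%.

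Against T138, T143 cells had less Itga4, Itgae, Itgb1, Itgb7 and Itga2, which is 5 of 10 chains lower and 0 higher at a limma adjusted p under 0.05, where 10.2% of the 15547 tested genes were called lower and 10.8% higher (21.0% either way). At an unadjusted p under 0.05 limma had 2 higher, and 0 were called higher by edgeR and 2 by DESeq2. Against WT, T138 cells had more Itga2, Itgb3, Itga4 and Itgb7 and less Itgal and Itga6, 4 chains higher and 2 lower, with 5.74% of tested genes called higher and 5.30% lower (11.0% either way). Against WT, T143 cells had more Itgb3, Itga2 and Itga1 and less Itgae and Itgb1, 3 chains higher and 2 lower, with 11.7% of tested genes called higher and 12.1% lower (23.8% either way). The median log2 change of the 10 chains in these 3 comparisons was -0.59, 0.81 and -0.35, beside 0.15, -0.06 and 0.05 over all tested genes. Every pair of comparisons shares a group of libraries, so their values are not independent. Of the 3 counts, that of T138 against WT moved most when a single library was dropped: leaving out WT replicate 3 left 3 chains called. It also fell without T138 replicate 1 or T138 replicate 2, fits that leave 1 library in that group. The count over all genes fell as well. Without WT replicate 3, 652 genes were called higher and 451 lower, where all libraries gave 892 and 824. Whether the fall was larger for the 10 chains than for all genes was not tested. A fit without the pair of libraries with the most neutrophil signal of their lines, T143 replicate 3 and T138 replicate 1, leaves 1 library in T138. Its counts are therefore not compared here. For T143 against T138, the log2 changes of Itga4, Itgae, Itgb1, Itgb7 and Itga2 were -1.69, -2.67, -1.69, -0.92 and -1.16 in that fit. With all libraries they were -1.52, -2.54, -1.59, -1.08 and -1.3. Leaving out both libraries with a source name of another mouse left 4, 4 and 4 chains called in the 3 comparisons. The calls lost were Itga2 for T143 against T138 (adjusted p = 0.0555), Itga6 (0.0658) and Itgb7 (0.055) for T138 against WT, and Itga1 for T143 against WT (0.0957). Fewer of all tested genes were called in that fit too, at 1503 higher and 1249 lower, 804 and 577, and 1567 and 1256 in the same order. With all libraries these were 1681 and 1591, 892 and 824, and 1818 and 1880.

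**Figure D2:**
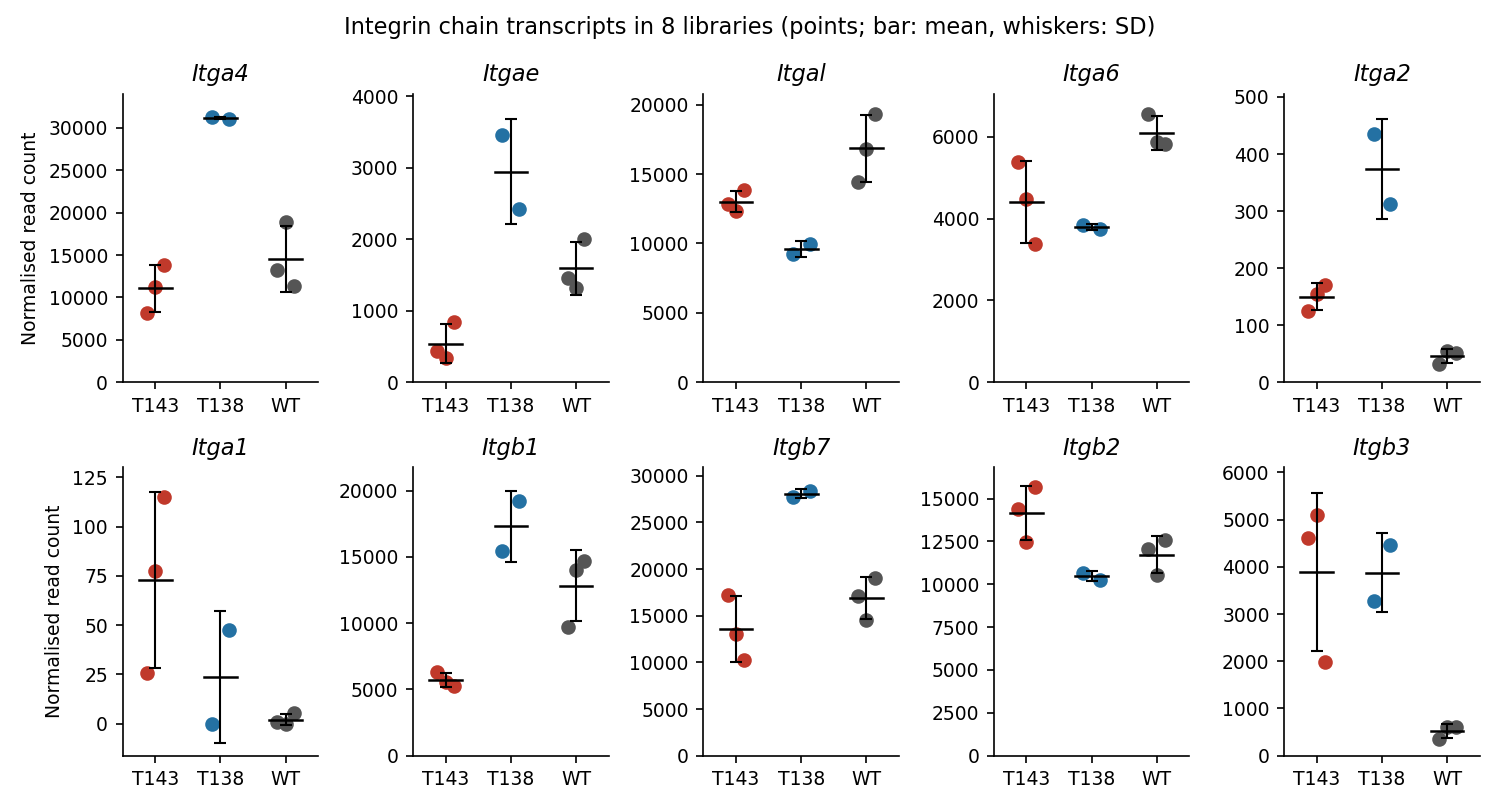
Normalised read count of each of the 10 chains (1 panel per gene, 1 point per library) in T143, T138 and WT, with the group mean as a bar and the SD as whiskers. Itga4 and Itgb7 stood highest in T138, Itgb1 and Itgae lowest in T143, and Itgb3 lowest in WT, at 363 to 612.

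Itga4, the alpha chain shared by the VCAM-1 and MAdCAM-1 receptors (chromosome 2, 79255426 to 79333114, plus strand, GRCm38), was at 8203, 11232 and 13784 in T143 cells, 31242 and 31052 in T138 cells and 13228, 18864 and 11370 in WT cells. Both T138 libraries lay above all 6 others, and T143 and WT overlapped. Itga4 fell 2.88-fold in T143 against T138 (log2 change -1.52 ± 0.24 SE, limma adjusted p = 0.00211). In T138 it rose 2.2-fold against WT (1.14 ± 0.24, adjusted p = 0.0142). T143 against WT was -0.39 ± 0.22, which did not pass (adjusted p = 0.23). Cerkl, which overlaps Itga4 on the opposite strand, was at 17.9 to 34.6 in T143, 0 to 7.62 in T138 and 36.2 to 79.0 in WT, far below Itga4 in every library. The fall against T138 passed with any 1 library left out, at an adjusted p of at most 0.0298. The rise in T138 over WT did not pass without T138 replicate 1 (0.0893), T138 replicate 2 (0.0988) or WT replicate 3 (0.0573).

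Itgb7, the beta partner of Itga4 and Itgae (chromosome 15, 102215994 to 102233405, minus strand), was at 17276, 13084 and 10260 in T143 cells, 27728 and 28405 in T138 cells and 17142, 14577 and 19007 in WT cells. As with Itga4, the T138 libraries stood above all others. Itgb7 fell 2.12-fold in T143 against T138 (-1.08 ± 0.21, adjusted p = 0.00528), a call lost without T138 replicate 2 (0.0558). It rose 1.67-fold in T138 against WT (0.74 ± 0.21, adjusted p = 0.0446). That call is close to the threshold: 5 of 20 alternative settings kept it, and it was lost, at an adjusted p of 0.0656 to 0.208, without T143 replicate 2, T138 replicate 1, T138 replicate 2, WT replicate 1, WT replicate 2 or WT replicate 3. T143 against WT was -0.34 ± 0.18 (adjusted p = 0.209), and passed as lower without T143 replicate 1 (0.043).

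Itgae, which encodes CD103, the chain that holds T cells in epithelium (chromosome 11, 73090505 to 73147449, plus strand), was at 434, 335 and 848 in T143 cells, 3463 and 2430 in T138 cells and 1451, 1314 and 2009 in WT cells. The 3 groups did not overlap, with T138 highest and T143 lowest. In T143 it fell 5.82-fold against T138 (-2.54 ± 0.35, adjusted p = 0.0011) and 3.14-fold against WT (-1.65 ± 0.31, adjusted p = 0.00409). Both calls held in all 20 alternatives, and without T143 replicate 3, the highest of its group, the changes were larger, at -2.93 and -2.03. T138 against WT was 0.89 ± 0.35 and did not pass (adjusted p = 0.142), but this depends on the estimate of spread: it passed with only the 2 groups compared in the fit (0.0247) and without T143 replicate 3 (0.032), a library of neither group. CD103 is also known on a class of dendritic cells. The dendritic list was highest in T138, with Itgax at 173, 604 and 678 in T143 cells, 3851 and 3803 in T138 cells and 10.3, 135.2 and 34.2 in WT cells. Its part in the Itgae, Itgb7 and Itga4 levels of T138 was not tested. The dendritic list was at 0.0363 to 0.154% in T143, above the 0.0073 to 0.00924% of WT. Itgae was lower in T143 than in WT, and so were Foxp3, Il2ra and Ctla4 (log2 changes -2.49, -3.43 and -3.14). The part of each cell type in this Itgae difference was not tested.

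Itgb1, the beta partner of the largest number of alpha chains (chromosome 8, 128685654 to 128733579, plus strand), was at 6299, 5597 and 5281 in T143 cells, 15430 and 19222 in T138 cells and 9746, 14024 and 14694 in WT cells. All T143 libraries lay below all others, and all T138 libraries above all WT libraries. Itgb1 fell 3.02-fold in T143 against T138 (-1.59 ± 0.19, adjusted p = 0.00057) and 2.21-fold against WT (-1.14 ± 0.17, adjusted p = 0.00138), in all 20 alternatives of each comparison. T138 against WT was 0.45 ± 0.19 and did not pass (adjusted p = 0.185).

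The LFA-1 chains were not among those that fell in T143 against T138. Itgal (chromosome 7, 127296139 to 127335137, plus strand) was at 12842, 12351 and 13858 in T143 cells, 9202 and 9977 in T138 cells and 14421, 16807 and 19299 in WT cells. The groups did not overlap, in the order T138, T143, WT from low to high. Itgal fell 1.74-fold in T138 against WT (-0.8 ± 0.15, adjusted p = 0.00773), a call lost without T138 replicate 1 (0.0784) or T138 replicate 2 (0.0573). Neither T143 against T138 (0.44 ± 0.15, adjusted p = 0.064) nor T143 against WT (-0.36 ± 0.14, adjusted p = 0.0791) passed. With 1 library left out, the second of these passed without WT replicate 1 (0.0441). Itgb2, the common leukocyte beta chain (chromosome 10, 77530329 to 77565708, plus strand), was at 14366, 12491 and 15649 in T143 cells, 10678 and 10256 in T138 cells and 12078, 10526 and 12561 in WT cells. It passed in none of the 3 comparisons, with a change of 0.43 ± 0.15 in T143 against T138 (adjusted p = 0.0619). Against WT the estimates were -0.16 ± 0.15 in T138 (adjusted p = 0.562) and 0.27 ± 0.13 in T143 (adjusted p = 0.168). With 1 library left out, the difference between the lines passed without WT replicate 2 (0.0459). Itgb2 also serves the myeloid alpha chain Itgam, which was at 1355, 2996 and 9374 in T143 cells, 747 and 508 in T138 cells and 28.2, 7.45 and 49.4 in WT cells. The part of myeloid transcripts in the Itgb2 level was not tested.

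Itgb3, which pairs with Itgav or Itga2b (chromosome 11, 104608000 to 104670476, plus strand), was at 4603, 5090 and 1981 in T143 cells, 3280 and 4462 in T138 cells and 363, 604 and 612 in WT cells. Every library of both nuclear-transfer lines lay above every WT library. It rose 7.01-fold in T143 (2.81 ± 0.35, adjusted p = 0.000637) and 7.46-fold in T138 (2.9 ± 0.39, adjusted p = 0.00182) against WT, in all 20 alternatives of both comparisons. T143 against T138 was -0.09 ± 0.39 (adjusted p = 0.886), with an estimate that changed sign without T143 replicate 3 (0.34) or T138 replicate 2 (0.13). Platelets carry Itgb3 at high level, so the 10 platelet and megakaryocyte markers were read beside it. They summed to 0.00171, 0.0029 and 0.00501% of the total in T143 cells, 0.000221 and 0.000885% in T138 cells and 0.000968, 0.00121 and 0.00104% in WT cells. In T138 the 2 libraries were below all WT libraries in that sum. Pf4, Ppbp, Gp1ba, Gp5, Gp6 and Treml1 were at 0 in both, but Gp1ba, Gp6 and Treml1 were also at 0 in every WT library. Itgb3 was at 3280 and 4462 in these T138 libraries. In T143, replicate 3 had the highest marker sum and the lowest Itgb3. Other marker lists were higher in both lines than in WT, as Itgb3 was. The 7 mast cell and basophil markers summed to 0.0032, 0.00845 and 0.0177% in T143 cells, 0.00874 and 0.00441% in T138 cells and 0.000163, 0.00117 and 0.000663% in WT cells. Of these 7, 3 were called higher in T143 and 2 in T138 against WT, among them Hdc in both (8.46 ± 0.89, adjusted p = 0.000199, and 5.03 ± 1, adjusted p = 0.00979) and Kit in T138 (3.61 ± 0.89, adjusted p = 0.031). The shares called were 42.9 and 28.6%, beside 11.7 and 5.74% of all tested genes called higher. In T138 replicate 1 Fcer1a and Ms4a2 were at 0, and in T138 replicate 2 Cpa3, Mcpt8, Fcer1a, Ms4a2 and Gata2 were. The macrophage and monocyte markers, at 0.0606 to 0.225% in T143, 0.0177 to 0.0297% in T138 and 0.00268 to 0.00332% in WT, and the erythroid markers, at 0.0174 to 0.0968% in T143, 0.0076 to 0.0151% in T138 and 0.00146 to 0.00391% in WT, were highest in T143 and lowest in WT. The part of platelets, mast cells or any of these cells in the Itgb3 level was not tested. Of the 9 tested platelet markers, 4 passed as higher in T143 against WT, and 0 passed in T138 against WT in limma (1 lower at an unadjusted p under 0.05, 0 in edgeR and 1 lower in DESeq2). These are 44.4 and 0% of the list, beside 11.7 and 5.74% of all tested genes called higher. With 9 genes, a count of 0 cannot be told from a share of 5.74%. Itga2b, the platelet partner, was at 55.7, 141 and 207 in T143 cells, 22.6 and 77.0 in T138 cells and 73.0, 166 and 135 in WT cells, and passed in no comparison (adjusted p = 0.154, 0.224 and 1 in limma). The other partner, Itgav, was at 1009, 1068 and 1172 in T143 cells, 2203 and 2170 in T138 cells and 1422, 1684 and 1461 in WT cells. It fell in T143 against T138 (-1.02 ± 0.15, adjusted p = 0.00142) and against WT (-0.49 ± 0.13, adjusted p = 0.0222), and rose in T138 against WT (0.53 ± 0.15, adjusted p = 0.0455).

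Of the collagen receptor chains, Itga2, which encodes CD49b, a chain of NK cells and of some regulatory T cells (chromosome 13, 114833081 to 114932100, minus strand), was at 125, 154 and 171 in T143 cells, 435 and 312 in T138 cells and 32.4, 55.4 and 51.7 in WT cells. The groups did not overlap, and the order was T138, T143, WT from high to low. Itga2 rose 7.98-fold in T138 (3 ± 0.4, adjusted p = 0.00138) and 3.24-fold in T143 (1.7 ± 0.36, adjusted p = 0.00725) against WT, in all 20 alternatives of both comparisons. It fell 2.46-fold in T143 against T138 (-1.3 ± 0.4, adjusted p = 0.0429), but this call did not pass, at 0.0578 to 0.193, without T143 replicate 1, T143 replicate 2, T143 replicate 3, T138 replicate 1, T138 replicate 2 or WT replicate 3. It rests on 47 to 442 recovered reads per library. The 10 NK cell and ILC1 markers summed to 1926, 2482 and 2696 in T143 cells, 1114 and 1210 in T138 cells and 834, 470 and 714 in WT cells. That sum was highest in T143, whereas Itga2 was highest in T138. The NK receptor gene Ncr1, a member of this list, was at 75.6, 280 and 141 in T143 cells, 149.6 and 164 in T138 cells and 0, 1.06 and 0 in WT cells, and rose in T143 (adjusted p = 0.000184) and in T138 (adjusted p = 0.000615) against WT, as Itga2 did. Of the 10, 6 were called higher in T143 against WT, and 4 higher and 1 lower in T138 (60 and 50%, beside 23.8 and 11.0% of all tested genes). Klrd1 was at 65.7, 102 and 108 in T143 cells, 396 and 343 in T138 cells and 0, 8.52 and 8.36 in WT cells, the group order of Itga2. Eomes fell in T138 against WT (-1.67 ± 0.43, adjusted p = 0.0316), and Nkg7 (-0.2) and Prf1 (-0.49) were not called there. Dendritic cell markers had the group order of Itga2 as well. They summed to 0.407 to 0.545% in T138, 0.0363 to 0.154% in T143 and 0.0073 to 0.00924% in WT. What part NK or dendritic cell transcripts had in the Itga2 level was not tested.

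Itga1, the neighbouring gene on chromosome 13 (114958079 to 115101964, minus strand), starts its span 26.0 kb from that of Itga2 and encodes the collagen chain CD49a. It was read rarely: 13, 61 and 93 reads in T143 cells, 0 and 56 in T138 cells and 1, 0 and 7 in WT cells. On the normalised scale this is 25.9, 77.6 and 115 in T143 cells, 0 and 47.4 in T138 cells and 0.69, 0 and 5.32 in WT cells, where 3 reads correspond to 2.07 to 5.97 depending on the library. All T143 libraries lay above all WT libraries, and the T138 libraries were apart from each other. With values this low the change depends on the added 1. For T143 against T138 the log2 change was 3.17 with 1 added, 1.61 with 10 added, 1.64 in edgeR and 1.62 in DESeq2. For T138 against WT the same settings gave 1.66, 1.02, 3.47 and 3.6. Itga1 passed as higher in T143 than in WT (4.83 ± 1.38, adjusted p = 0.0283), but not when WT replicate 2 (0.0913), T143 replicate 3 (0.085), T143 replicate 2 (0.0834) or WT replicate 1 (0.0681) was left out, nor without T143 replicate 1 and WT replicate 1 together (0.0957). The comparisons with T138 were 3.17 ± 1.54 for T143 against T138 (adjusted p = 0.169) and 1.66 ± 1.54 for T138 against WT (adjusted p = 0.564), and rest on 1 library: without T138 replicate 2 they were 5.97 (adjusted p = 0.0322) and -1.14 (0.72), and without T138 replicate 1 they were 0.37 (0.869) and 4.46 (0.0838). Pelo, which lies within the span of Itga1 on the same strand, was at 207 to 252 in T143, 94.0 to 144 in T138 and 178 to 245 in WT, and did not follow the order of Itga1.

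Itga6, the laminin receptor chain (chromosome 2, 71786886 to 71858427, plus strand), was at 5379, 4478 and 3374 in T143 cells, 3841 and 3740 in T138 cells and 6567, 5886 and 5827 in WT cells. Every WT library lay above every library of the lines, which overlapped with each other. Itga6 fell 1.61-fold in T138 against WT (-0.68 ± 0.19, adjusted p = 0.0395), a call lost, at 0.0605 to 0.188, without T143 replicate 2, T138 replicate 1, T138 replicate 2, WT replicate 1, WT replicate 2 or WT replicate 3. T143 against WT was -0.49 ± 0.17 (adjusted p = 0.0548), and passed as lower without T143 replicate 1 (0.0171). T143 against T138 was 0.19 ± 0.19 (adjusted p = 0.491).

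**Figure D3:**
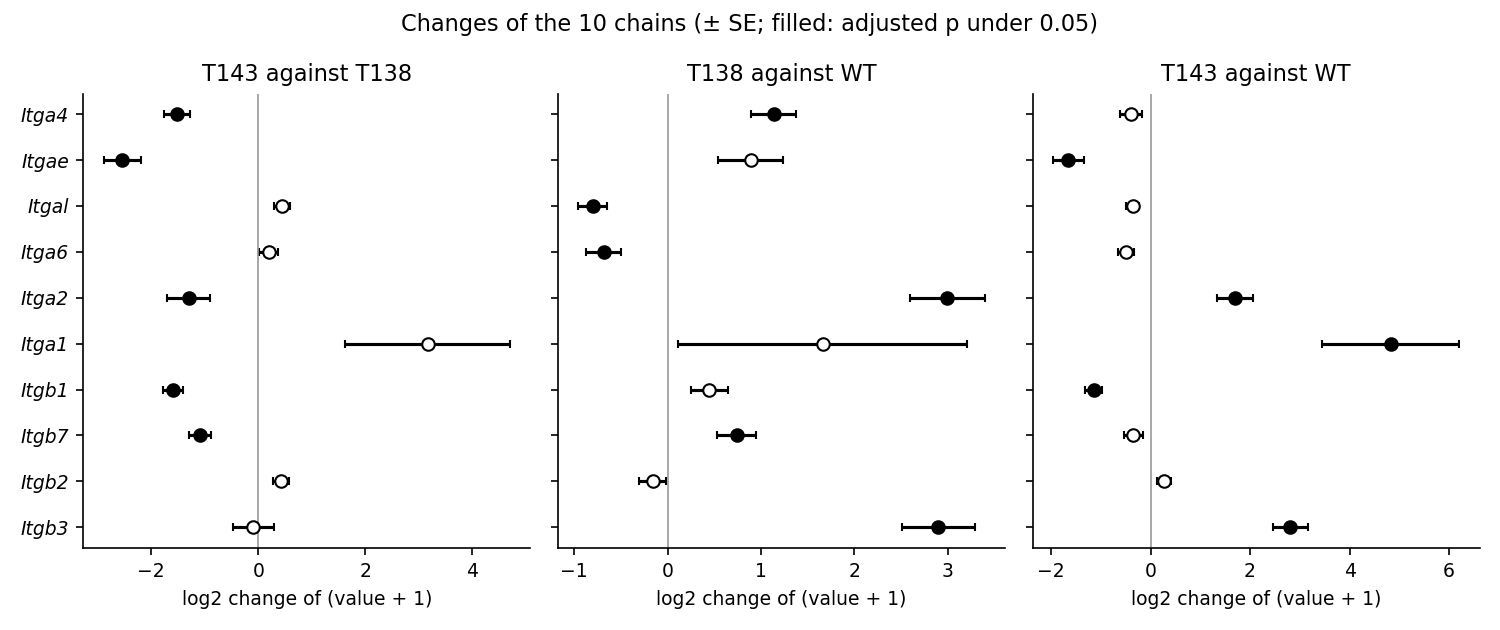
Log2 change of value + 1 with its SE (x axis) for each of the 10 chains (rows) in T143 against T138, T138 against WT and T143 against WT. Filled points have a limma adjusted p under 0.05. Itgae, Itgb1, Itga4 and Itgb7 lie left of 0 in the first panel, and Itgb3 lies near 2.9 and 2.81 in the other panels.

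**Figure D4:**
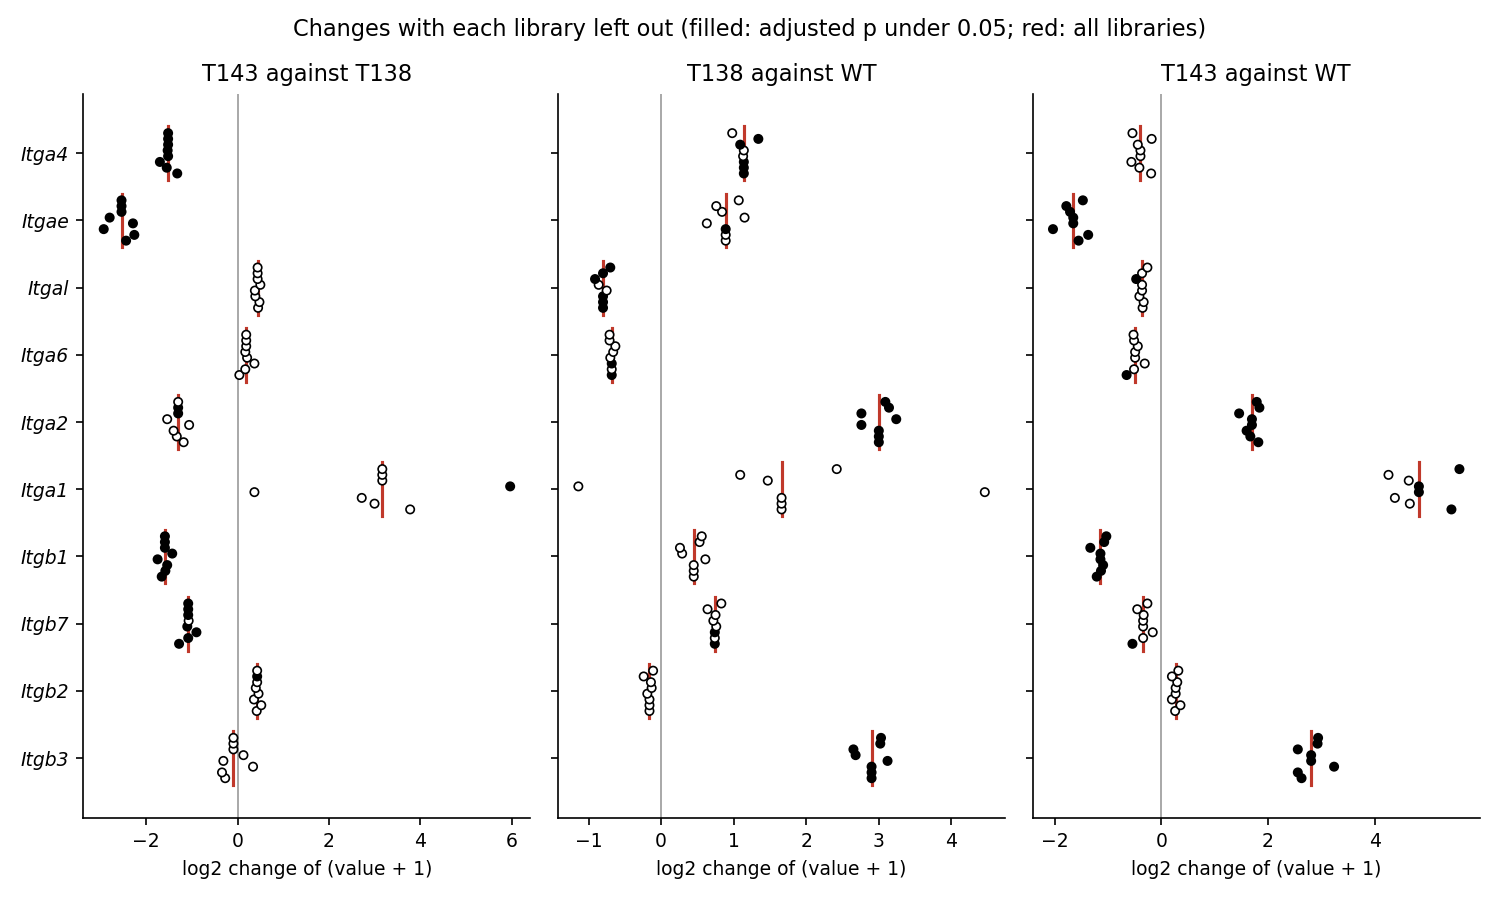
Log2 change of each chain (x axis) with each of the 8 libraries left out in turn, 1 point per left-out library, in the same 3 comparisons. Filled points have a limma adjusted p under 0.05 and the red line is the value with all libraries. The Itga1 points run from 0.37 to 5.97 in T143 against T138 and from -1.14 to 4.46 in T138 against WT, wider than those of the other chains.

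To set the chains beside each other, each value was divided by the length of the transcript the authors' table names. On this per-kilobase scale Itgb7 was the highest of the 10 in every group, at 5047 ± 1316 in T143, 10461 ± 178 in T138 and 6302 ± 829 in WT (mean ± SD, n = 3, 2 and 3), while Itga2 and Itga1 were the lowest. Itgb2 came next in T143 (4771 ± 535) and in WT (3947 ± 358), and Itgb1 in T138 (4542 ± 703). In T143 Itgb7 and Itgb2 differed by less than the SD of Itgb7. Among the 4 beta chains, Itgb1 made up 12.0, 12.8 and 12.8% of the per-kilobase level in T143 cells, 21.8 and 25.4% in T138 cells and 19.5, 28.8 and 25.2% in WT cells. Itgb2 made up 35.2, 36.8 and 48.7% in T143 cells, 19.4 and 17.4% in T138 cells and 31.1, 27.8 and 27.7% in WT cells. The 3 groups were separate in the Itgb2 share, with T143 highest and T138 lowest. Among the 6 alpha chains, Itga4 made up 17.9, 24.6 and 27.7% in T143 cells, 46.9 and 47.9% in T138 cells and 22.5, 28.1 and 17.3% in WT cells, and Itgal 52.5, 50.6 and 52.0% in T143 cells, 25.9 and 28.8% in T138 cells and 45.9, 46.9 and 54.8% in WT cells. In T138 Itga4 was therefore the leading alpha transcript per kilobase, and in T143 and WT Itgal was. Shares within a family depend on each other, and no test was run on them.

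Partner chains were also set against each other. The ratio of Itgb7 to Itgb1 per kilobase, the beta chains that compete for the Itga4 product, was 3.9, 3.32 and 2.76 in T143 cells, 2.56 and 2.1 in T138 cells and 2.5, 1.48 and 1.84 in WT cells. All T143 libraries were above all others. The ratio of Itgae to Itgb7 was 0.0175, 0.0179 and 0.0577 in T143 cells, 0.0871 and 0.0597 in T138 cells and 0.0591, 0.0629 and 0.0737 in WT cells. T143 was below the other groups, replicate 3 by little. The ratio of Itgal to Itgb2, the LFA-1 pair, was 0.508, 0.562 and 0.504 in T143 cells and 0.49 and 0.553 in T138 cells. It was 0.679, 0.908 and 0.874 in WT cells, so that both lines lay below WT. Itgb2 also serves Itgam, which rose in both lines against WT. The part of myeloid transcripts in this ratio and in the Itgb2 share was not tested. The ratio of Itgb3 to Itgb1 was 0.482, 0.6 and 0.247 in T143 cells, 0.14 and 0.153 in T138 cells and 0.0246, 0.0284 and 0.0275 in WT cells, with no overlap between groups. These ratios are descriptions of transcripts, with no test, and say nothing of protein pairs at the surface.

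**Figure D5:**
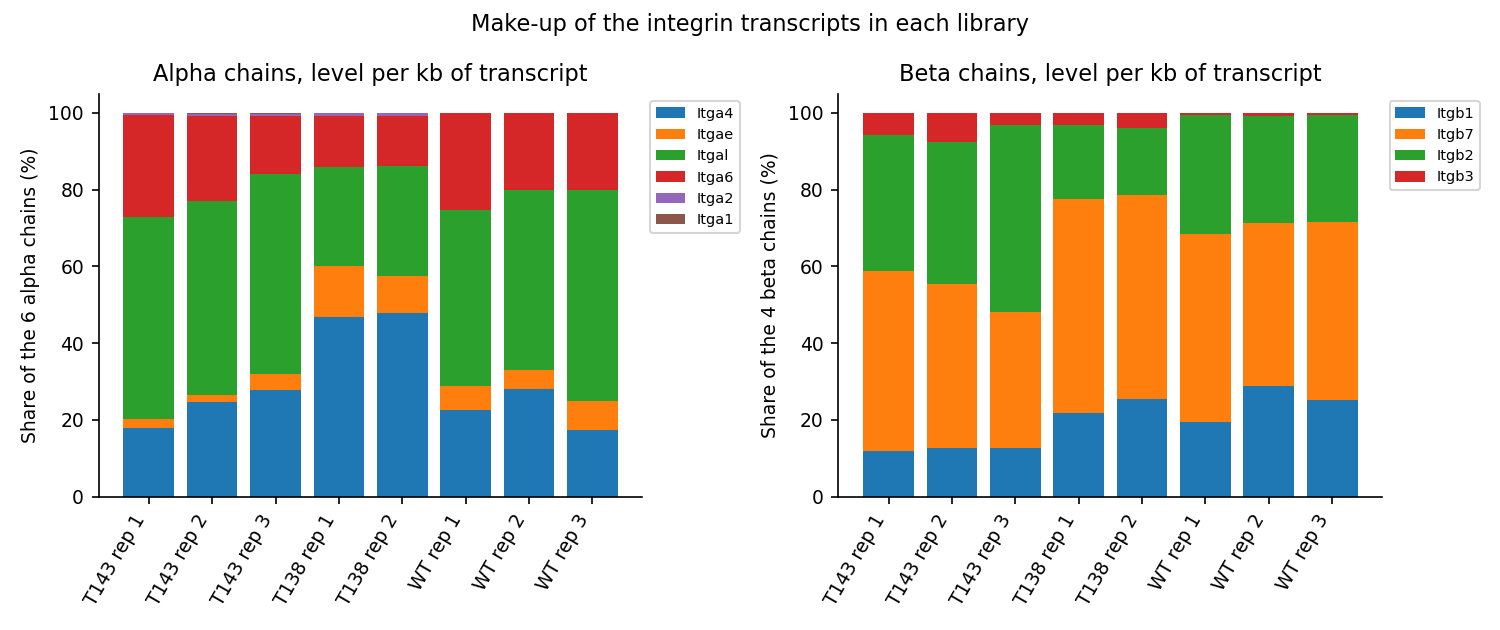
Share (%) of each alpha chain among the 6 alpha chains (left) and of each beta chain among the 4 beta chains (right), from levels per kilobase of transcript, in each of the 8 libraries. In T138 Itga4 takes 46.9 and 47.9% of the alpha chains, and in T143 Itgb1 takes 12.0 to 12.8% of the beta chains.

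The rest of the integrin family and its machinery were read from lists. Of 15 tested other integrin chains, 1 was higher and 3 lower in T143 against T138, 3 higher and 1 lower in T138 against WT, and 3 higher and 3 lower in T143 against WT, with median log2 changes of 0.26, 0.53 and 0.39. In all, 26.7, 26.7 and 40% of the list were called in the 3 comparisons, where 21.0, 11.0 and 23.8% of all tested genes were. Several of these are chains of myeloid cells: Itgax and Itgam rose in T138 (6.66 ± 0.91 and 4.73 ± 0.84, adjusted p = 0.00216 and 0.00752) and in T143 (3.46 ± 0.81 and 7.18 ± 0.76, adjusted p = 0.0146 and 0.000355) against WT. Itgb8, a chain that Treg cells are known to use to activate latent TGF-beta, was at 47.8, 43.3 and 17.3 in T143 cells, 79.7 and 95.7 in T138 cells and 326, 371 and 358 in WT cells. Both lines were below WT in every library. It fell against WT in T143 (-3.37 ± 0.43, adjusted p = 0.000578) and in T138 (-2 ± 0.48, adjusted p = 0.0252). Itga3, a laminin receptor chain, was at 89.5, 109 and 132 in T143 cells, 403 and 539 in T138 cells and 169, 312 and 233 in WT cells, and fell in T143 against T138 (-2.09 ± 0.35, adjusted p = 0.00256). Itga9 rose in the same comparison (2.96 ± 0.91, adjusted p = 0.0422).

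Of 18 tested genes that switch integrins on, 1 was higher and 0 lower in T143 against T138, 2 higher and 0 lower in T138 against WT, and 4 higher and 1 lower in T143 against WT, with medians of 0.2, -0.08 and 0.16. These are 5.56, 11.1 and 27.8% of the list, beside the all-gene shares of 21.0, 11.0 and 23.8%, so the T138 count is at the background. For the counts of 0 lower, an unadjusted limma p under 0.05 gave 1 and 3, edgeR 0 and 0, and DESeq2 1 and 2. Rap1b, the small GTPase that triggers integrin activation, was at 11210, 10019 and 9618 in T143 cells, 9480 and 8472 in T138 cells and 5945, 3903 and 4477 in WT cells. It rose against WT in T143 (1.13 ± 0.16, adjusted p = 0.00103) and in T138 (0.93 ± 0.18, adjusted p = 0.00884). Stk4, a kinase of the RAP1 pathway in lymphocytes, rose in T143 against T138 (0.93 ± 0.16, adjusted p = 0.00263), and the adaptor gene Fyb fell in T143 against WT (-0.49 ± 0.13, adjusted p = 0.021). The adaptor gene Skap2 was at 585, 856 and 1995 in T143 cells, 721 and 627 in T138 cells and 275, 169 and 237 in WT cells. It rose against WT in T143 (2.16 ± 0.38, adjusted p = 0.00288) and in T138 (1.59 ± 0.43, adjusted p = 0.038). Neutrophil markers summed to 0.571, 0.963 and 3.43% in the T143 libraries, the same order. The part of myeloid transcripts in the Skap2 level was not tested. Among 15 tested genes that hold integrins inactive, 1 was higher and 4 lower in T143 against T138, 1 higher and 1 lower in T138 against WT, and 2 higher and 4 lower in T143 against WT. The shares called were 33.3, 13.3 and 40%, beside 21.0, 11.0 and 23.8% of all genes. Rap1gap2, which switches RAP1 off, was at 563, 867 and 1370 in T143 cells, 2416 and 2198 in T138 cells and 213, 337 and 397 in WT cells. It rose in T138 against WT (2.91 ± 0.35, adjusted p = 0.000833) and in T143 against WT (1.52 ± 0.31, adjusted p = 0.00642). Sharpin, an inhibitor of beta chain activation, fell in T143 against T138 (-0.78 ± 0.15, adjusted p = 0.00475), as did Dok2 (-1 ± 0.16, adjusted p = 0.00245), whereas Sipa1l1 rose (0.83 ± 0.17, adjusted p = 0.0083). Sipa1l1 fell in T138 against WT (-0.92 ± 0.17, adjusted p = 0.00742). In T143 against WT, Flna, which competes for integrin tails, rose (0.42 ± 0.13, adjusted p = 0.0404), and Nisch fell (-1.33 ± 0.16, adjusted p = 0.000472).

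Downstream of the receptor, 6 of 36 tested signalling genes were higher and 3 lower in T143 against T138, 2 higher and 3 lower in T138 against WT, and 9 higher and 6 lower in T143 against WT, with medians of 0.2, -0.08 and 0.12. The shares called were 25, 13.9 and 41.7%, of which the first 2 are near the 21.0 and 11.0% of all genes and the last stands beside 23.8%. Actn1, which links integrin tails to actin, was at 5483, 4869 and 3852 in T143 cells, 776 and 495 in T138 cells and 2106, 1466 and 1469 in WT cells. The groups did not overlap. It rose in T143 against T138 (2.92 ± 0.24, adjusted p = 7.42e-05) and against WT (1.5 ± 0.21, adjusted p = 0.000993), and fell in T138 against WT (-1.42 ± 0.24, adjusted p = 0.00442). The kinase gene Src fell in T143 against T138 (-2.49 ± 0.42, adjusted p = 0.00282) and the focal adhesion adaptor Lims1 rose (0.85 ± 0.14, adjusted p = 0.00266), while Rhoh fell (-1.11 ± 0.21, adjusted p = 0.00501). Tns3, a tensin, rose against WT in T143 (3.9 ± 0.72, adjusted p = 0.00357) and in T138 (4.04 ± 0.8, adjusted p = 0.00985). It was at 87.6, 590 and 653 in T143 cells, the order of the neutrophil marker sum. The part of myeloid transcripts in the Tns3 level was not tested. The GTPase gene Cdc42 rose in T138 against WT (0.59 ± 0.15, adjusted p = 0.0301). Tns1, another tensin, fell in T143 against WT (-1.28 ± 0.17, adjusted p = 0.000756). Fyn, a Src family kinase, fell in both lines against WT, with log2 changes of -0.71 ± 0.12 in T143 (adjusted p = 0.00241) and -0.91 ± 0.14 in T138 (adjusted p = 0.00229). Of 12 tetraspanins and surface partners, 3 were higher and 2 lower in T143 against T138, 3 higher and 0 lower in T138 against WT, and 5 higher and 1 lower in T143 against WT. The count of 0 lower was also 0 at an unadjusted limma p under 0.05, in edgeR and in DESeq2. The shares called were 41.7, 25 and 50%, beside 21.0, 11.0 and 23.8% of all genes. Cd47, a partner of Itgb3 pairs, rose in T143 against T138 (0.75 ± 0.13, adjusted p = 0.00339) and against WT (0.94 ± 0.12, adjusted p = 0.000526), and the tetraspanin gene Tspan32 fell (-1 ± 0.16, adjusted p = 0.00191, and -1.14 ± 0.14, adjusted p = 0.000453). Plaur, the urokinase receptor, was at 697, 820 and 1574 in T143 cells, 478 and 418 in T138 cells and 44.8, 44.7 and 53.2 in WT cells, and rose against WT in T143 (4.32 ± 0.31, adjusted p = 3.02e-05) and in T138 (3.21 ± 0.35, adjusted p = 0.000497). Its order among the T143 libraries was that of the neutrophil marker sum. What part myeloid transcripts had in the Plaur level was not tested. Cd63 was at 59.7, 109 and 387 in T143 cells, 0 in both T138 libraries and 0 to 11.7 in WT cells. It was called higher in T143 against T138 (adjusted p = 0.00311). Cd63 too had the order of the neutrophil marker sum among the T143 libraries, and the part of myeloid transcripts in it was not tested. Cd37 fell in T143 against T138 (-0.91 ± 0.15, adjusted p = 0.00279), and Cd81 rose in T138 against WT (0.62 ± 0.17, adjusted p = 0.0394).

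Of 22 tested ligand genes, 6 were higher and 4 lower in T143 against T138, 2 higher and 1 lower in T138 against WT, and 5 higher and 3 lower in T143 against WT. These are 45.5, 13.6 and 36.4% of the list, beside 21.0, 11.0 and 23.8% of all genes. The genes with the smallest p among the 6 higher ones were Thbs1, a thrombospondin (adjusted p = 0.00329), at 27.9, 62.4 and 131 in T143 cells and 0 and 0.85 in T138 cells, and Fbn1, a fibrillin (adjusted p = 0.00708), at 13.9, 19.1 and 95.3 in T143 cells and 0 in both T138 libraries. In WT Thbs1 was at 0 to 0.69 and Fbn1 at 0. The order of both among the T143 libraries was that of the neutrophil marker sum. The part of myeloid transcripts in their levels was not tested. Lama5, a laminin chain, was at 7.96, 12.7 and 23.5 in T143 cells, 6.89 and 15.2 in T138 cells and 88.8, 153 and 125 in WT cells, and fell against WT in T143 (adjusted p = 0.00758) and in T138 (adjusted p = 0.0144). Icam1, the main LFA-1 ligand, was at 1087, 1191 and 1504 in T143 cells, 2427 and 2913 in T138 cells and 1216, 1428 and 1807 in WT cells. It fell in T143 against T138 (-1.09 ± 0.2, adjusted p = 0.00479) and rose in T138 against WT (0.86 ± 0.2, adjusted p = 0.0228). Lamc1, a laminin chain, was at 248.8, 325 and 1031 in T143 cells, 2445 and 2522 in T138 cells and 1634, 1810 and 2007 in WT cells, and fell in T143 against T138 (-2.5 ± 0.48, adjusted p = 0.00705) and against WT (-2.05 ± 0.43, adjusted p = 0.00884). Fn1, which encodes fibronectin, was at 685, 3744 and 5836 in T143 cells, 80.7 and 190 in T138 cells and 4.13, 3.19 and 0 in WT cells. Its WT values are near those that 3 reads give. It rose in T143 against T138 (4.3 ± 0.94, adjusted p = 0.0103), in T143 against WT (9.79 ± 0.85, adjusted p = 7.02e-05) and in T138 against WT (5.49 ± 0.94, adjusted p = 0.00483). In the same libraries macrophage and monocyte markers (8 of 8 in the table) summed to 0.0606, 0.172 and 0.225% of the total in T143 cells, 0.0297 and 0.0177% in T138 cells and 0.00332, 0.00282 and 0.00268% in WT cells, which is the order of Fn1 among the T143 libraries. Their part in the Fn1 level was not tested.

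Among genes above the median level, those whose log2 values followed a chain most closely over the 8 libraries were, for Itgae, Plk3 (Pearson r = 0.994) and Il12rb1 (0.991), for Itgb1 Iqce (0.986) and Pced1a (0.985), for Itga4 Neat1 (0.977) and Hps3 (0.972), and for Itgb7 Donson (0.978) and H2-Q1 (0.974). Itga2 was followed by Rap1gap2 (0.978) and Fgl2 (0.977), Itgb3 by Exoc8 (0.979) and Ythdf2 (0.972), Itga6 by Jakmip1 and Cd96 (0.982 each), Itgal by Egr2 (0.966) and Mkl2 (0.964), Itgb2 by Bcl10 (0.966) and Pkm (0.965), and Itga1 by Rnf11 (0.951) and Fam63a (0.942). Neat1 was at 3620, 7525 and 8128 in T143 cells, 33071 and 33180 in T138 cells and 9984, 15991 and 9976 in WT cells, the same order of groups as Itga4. Among the chains themselves the highest correlations were 0.88 between Itgb1 and Itgae, 0.85 between Itgb3 and Itga2, and 0.8 between Itgb7 and Itgb1, and the lowest were -0.88 between Itga6 and Itga2 and -0.86 between Itgal and Itga2. The 8 libraries fall into 3 groups and share the differences in content described above, so these values are descriptions without a test.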

How the data were processed

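Deposited values are a signal: read counts per gene that, judged from the values, the authors divided by 1 factor per library, giving every library a total of 15.59 M. Per the submitters' processing notes, mm10 was the build and the tools were STAR 2.5.2b, HOMER 4.8, CASAVA 1.8.2 and edgeR (version absent), their roles unstated. For strand, multi-mapped reads and duplicates, the counting rule is not given in these sources, so genes that overlap are uncertain. Dividing by the step of each library returned whole reads for 100% of values (within 0.01), and a test on those reads is an alternative. A count of 3 reads was taken as the floor, and it covers counting error only.

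Groups and replicate numbers came from the description labels. The source names of T143 replicate 1 and WT replicate 1 point to another mouse, so results without both were computed. Genes reaching 1 in 2 or more libraries (15547 of 24453) entered limma 3.58.1 (R 4.3.3) on log2(value + 1), using trend and robust empirical Bayes, all 8 libraries in 1 fit of group means, two-sided, with Benjamini-Hochberg adjustment over all tested genes and a threshold of 0.05. Because 1 was added, changes of low genes depend on it and can be smaller or larger than in other settings. With T138 at 2 libraries the groups share an estimate of spread. Where a T138 library is left out, the remaining one is assumed to vary like the other groups. The procedure was tested on simulated counts.

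Members and lists were chosen with earlier results of these data known, so no adjustment over a list alone is given. The rule for named genes took all members, in each list and comparison up to 2 called genes per direction with the smallest p, the 2 genes most correlated with each member, the 2 highest of each marker list and genes overlapping a member; of the marker genes, the text gives those that stand beside a result; further genes (Ncr1, the platelet genes, Xist, Ddx3y and others outside that rule) are given as context and were chosen after their values were seen, as were the ratios. Gene spans are from RefSeq (GRCm38), strands and transcript lengths from GENCODE M21 of the same build, and promoters from RefSeq (GRCm38.p6). Alternatives used edgeR 4.0.16 and DESeq2 1.42.0.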

Additional observations from a re-analysis of the deposited data

How the results depend on the processing

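Of 20 alternatives each, all kept the calls of Itga4, Itgae and Itgb1 for T143 against T138, Itga2 and Itgb3 for T138 against WT, and Itga2, Itgae, Itgb1 and Itgb3 for T143 against WT. The number of chains called ran from 4 to 7 between the lines, from 2 to 7 for T138 over WT and from 4 to 7 for T143 over WT. For T138 against WT it was 2 without trend and robust fitting and 2 without T138 replicate 1 and T143 replicate 3 together, and from 2 to 7 with 1 library left out. All genes called for T143 against T138 were 2158 without trend and robust fitting, 1737 without that pair of libraries and 1345 to 3674 with 1 library left out. The same count for T138 against WT was 977, 989 and 757 to 1837, and for T143 against WT it was 2460 to 3575 with 1 library left out. Fewer samples enter the fits that leave libraries out; otherwise the cause was not tested.

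Signs changed only for 2 chains whose change was not called. For Itgb3, T143 against T138, the log2 change was 0.01 in edgeR on recovered reads, 0.06 with the replicate block, 0.12 without the pair, and -0.34 to 0.34 with 1 library left out. For Itga1 it was -0.07 for T143 against T138 without the pair, and -1.14 to 4.46 for T138 against WT with 1 library left out. DESeq2 on recovered reads also called Itgal (adjusted p = 0.0239) and Itgb2 (0.0224) higher in T143 than in T138. Under quantile normalization the all-gene median was moved to 0.014 from 0.152 for T143 against T138 and to -0.078 from 0.053 for T143 against WT, and changed no direction of a chain.

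Replicate numbers did not pair the libraries: deviations of same-numbered libraries correlated at -0.06 to 0.05. With a replicate block 4 chains were called between the lines, and against WT 6 in T138 and 7 in T143. The block lost Itga2 for T143 against T138 (adjusted p = 0.0569) and Itgb7 for T138 against WT (0.0599), and gained Itgae for T138 against WT (log2 change 1.17, 0.00634) and Itga6 (0.025) and Itgal (0.0459) for T143 against WT. Depth limits Itga1, read 0 to 93 times per library.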
